A study of Mus musculus with 57 samples.

Results

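The cells described here are the dormant mouse prostate cancer cells that carried the tumour label, split by whether their libraries also held leukocyte transcripts. A dormant cell counted as labelled when its library held at least 100 normalised reads of eCFP, the fluorescent protein built into the injected line. Of 57 single-cell libraries, 28 were from dormant cells and 22 of these were labelled. The number of genes above 0 among 18 leukocyte genes then split the 22 cells: 8 cells with 5 or more are called leukocyte-rich and 14 cells with fewer are called leukocyte-poor. The classes were chosen by measured values of these same libraries (eCFP and the number of the 18 genes above 0), so the levels of the 18 genes in the 2 classes are a description, not a test.

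RM1 is a mouse prostate cancer line. RM1536 is its derivative with eCFP and the luciferase luc2, dyed with PKH26, a membrane dye that thins out at each division, and given to C57BL/6 mice by intracardiac injection. Cells from bone metastases were sorted one by one: dye-positive cells are called dormant and dye-negative cells proliferating. All mice were of this strain and received the same line. The 22 cells came from 4 mice: 4 from mouse 369 (day 17 after injection), 3 from mouse 452 (day 16), 4 from mouse 1184 (day 15) and 11 from mouse 1185 (day 14). Each mouse gave both classes, with 2 leukocyte-rich cells in mouse 369, 1 in mouse 452, 2 in mouse 1184 and 3 in mouse 1185. The comparison groups were 29 labelled proliferating cells (7 leukocyte-rich, 22 leukocyte-poor) from 6 mice and 6 dormant libraries with eCFP under 100. RM1 is 1 tumour line, and "dormant" rests on dye retention at one endpoint per mouse. Per the labels, sequencing libraries were made in 4 batches, each of cells of 1 state, and pooled across states, so effects of those batches and of state cannot be told apart. Another split, seen in the data, held both states: 7 dormant and 9 proliferating cells detected 40 to 48 spike-in features, and the other 41 cells 18 to 34. Among the 22 labelled dormant cells, the 4 of mouse 369 detected 40 or more and all others fewer, so differences within a mouse lie within these sets.

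Leukocytes share a set of genes that epithelial cells largely lack. These include the phosphatase receptor CD45 (Ptprc), the actin regulators Coro1a, Lcp1 and Was, the signalling proteins Vav1, Ptpn6 and Rac2, the β2 integrin chains Itgb2 and Itgal with their activator Fermt3, and PU.1 (Spi1), the transcription factor that drives myeloid development. Lysozyme (Lyz2) is a secreted enzyme made in large amounts by macrophages and neutrophils, while keratins 8 and 18 (Krt8, Krt18) are filament proteins of simple epithelia. Bone marrow, from which these cells were sorted, is rich in myeloid cells at every stage of maturation.

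PU.1 binds purine-rich sites built around the core GGAA, so the promoters of the 18 genes were searched for 1 fixed form, GAGGAAGT, on both strands. In the RefSeq promoter table (GRCm38.p6), 13 of the 18 genes had a window of 250 bases before to 50 after the gene start. These 13 genes had 18 windows, some with several starts, and 3 of the 18 windows (16.7%) held the motif, 1 each for Cd53, Cd37 and Vav1, against 3.2% of all 32851 windows. Cd37, a membrane-spanning tetraspanin, and Vav1, an exchange factor for Rac proteins, are shown because both were at 0 in every leukocyte-poor cell and held the motif before the RefSeq start of that window. For Cd37 that start (45238839) lies inside the gene as the annotation draws it (chr7:45233632-45239115, minus strand), so its stretch is upstream of 1 RefSeq start only. The stretches read 5′ to 3′ on the gene's strand, and capitals mark the motif or its reverse complement.
Cd37, chr7:45238840-45238894, minus strand: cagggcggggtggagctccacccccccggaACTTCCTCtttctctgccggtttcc
Vav1, chr17:57279059-57279099, plus strand: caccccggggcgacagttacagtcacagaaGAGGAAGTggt
In Cd37 the capitals are the reverse complement of the motif. A match is a description of the letters in the window and no evidence that PU.1 bound there.

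**Figure D1:**
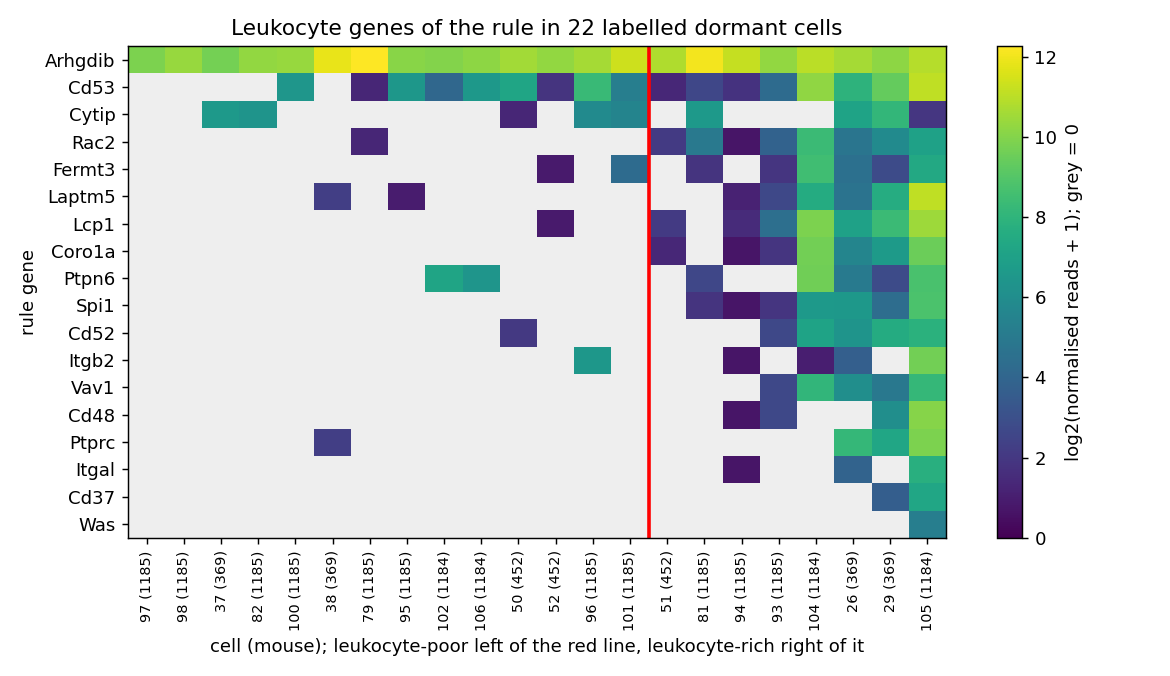
Level of each of the 18 rule genes (rows, log2 of normalised reads plus 1) in each of the 22 labelled dormant cells (columns, cell number with the mouse in brackets), with grey for 0. Arhgdib is filled in every column, 7 genes are grey in all 14 leukocyte-poor cells, and cell 105 of mouse 1184 holds all 18.

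The 18 genes did not fill evenly. Arhgdib was above 0 in all 22 cells, at 846 to 4930 normalised reads in leukocyte-poor cells and 1170 to 4275 in leukocyte-rich cells, so the ranges overlapped. The tetraspanin Cd53 was above 0 in 9 of 14 leukocyte-poor cells, with a highest value of 316. By contrast, 7 genes (Coro1a, Spi1, Vav1, Cd48, Cd37, Itgal and Was) were at 0 in every leukocyte-poor cell. Among leukocyte-poor cells, 2 held 1 rule gene, 3 held 2, 5 held 3 and 4 held 4.

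Just outside the threshold, with 4 rule genes, were cells 50 and 52 of mouse 452 and cells 96 and 101 of mouse 1185. Just inside it, with 5, was cell 51 of mouse 452, and next came cell 81 of mouse 1185 with 7. Leaving out Arhgdib, the rule genes of cell 51 summed to 9.52 normalised reads, those of cell 52 to 4.30 and those of cell 96 to 463. The classes thus differed in how many of the genes were seen, and overlapped in how much: 9.42 to 11375 normalised reads in leukocyte-rich cells (median 676) against 0 to 463 in leukocyte-poor cells (median 88.3).

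Within the leukocyte-rich class the levels fell into a low and a high range. In cells 51, 94, 93 and 81 the same sum was 9.52, 9.42, 83.0 and 139. In cells 26, 29, 104 and 105 it was 1213, 2077, 5111 and 11375. The low range held all 3 leukocyte-rich cells of mouse 1185 and the cell of mouse 452, and the high range held those of mice 369 and 1184. In the low range the median level of the rule genes above 0 was 0.628 in cell 94, 3.17 in cell 51, 5.07 in cell 81 and 5.36 in cell 93. Cell 94 had the most gene reads (5306777), and 0.628 was 1 read there. Counting rule genes only from 10 normalised reads gave a mean leukocyte-rich share of 25.0% over the 4 mice, against 40.2% by the rule.
Lcp1, the actin bundler L-plastin, shows the gap for 1 gene. It read 3.17 in cell 51, 0 in cell 81, 1.88 in cell 94 and 21.4 in cell 93, and then 130 in cell 26, 328 in cell 29, 917 in cell 104 and 1400 in cell 105. A single leukocyte-poor cell held Lcp1, at 0.86. Ptprc, which encodes CD45, was above 0 only in cells 26 (286), 29 (151) and 105 (915) among the leukocyte-rich cells, and in 1 leukocyte-poor cell at 3.85.

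All 8 leukocyte-rich cells also held the tumour line's transcripts. eCFP ran from 349 to 3119 normalised reads in them (median 1383) and from 601 to 5256 in leukocyte-poor cells (median 2361). Luc2 ran from 1850 to 18063 (median 4710) against 2145 to 26410 (median 10797). Krt8 ran from 560 to 7830 (median 2960) against 962 to 15246 (median 4049). For each of these 3 genes the classes overlapped over most of their range.
Within the leukocyte-rich class the lowest label values were those of cell 51 (eCFP 349, Luc2 2306) and with both leukocyte-rich cells of mouse 1184, cell 104 (eCFP 418, Luc2 1850, Krt8 653) and cell 105 (eCFP 736, Luc2 2494, Krt8 560). The leukocyte-rich cells of mouse 369, cells 26 and 29, were high in leukocyte transcripts with eCFP of 1831 and 1980, inside the leukocyte-poor range. Per mouse, log2 Luc2 was lower in the leukocyte-rich class in 3 of 4 mice, by 1.29 ± 1.65 on average (SD, n = 4).

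Lyz2, which the rule did not count, ran over a wide range in leukocyte-rich cells. It read 21.99 in cell 94, 36.5 in cell 51, 112 in cell 81, 477 in cell 93, 2940 in cell 26, 4262 in cell 29, 48048 in cell 104 and 95205 in cell 105. In the 14 leukocyte-poor cells the lowest value was 0, the median 0.533 and the highest 26.1, with 7 cells above 0. The classes overlapped only through cell 94, which lay below the highest leukocyte-poor cell. The mean difference over mice was 8.33 ± 2.34 on the log2(normalised reads + 1) scale (SE, n = 4), higher in 4 of 4 mice.
In the 6 dormant libraries with low label Lyz2 read 52146 to 188632, so cell 105 fell within their range and cell 104 just under it. Krt8 in those 6 libraries was at most 9.40 normalised reads, far under its lowest value of 560 in the leukocyte-rich cells. Transcripts of eCFP, Krt8 and Lyz2 were thus present together in each of the 8 leukocyte-rich libraries. Whether both sets of transcripts in a library came from 1 cell was not tested.

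**Figure D2:**
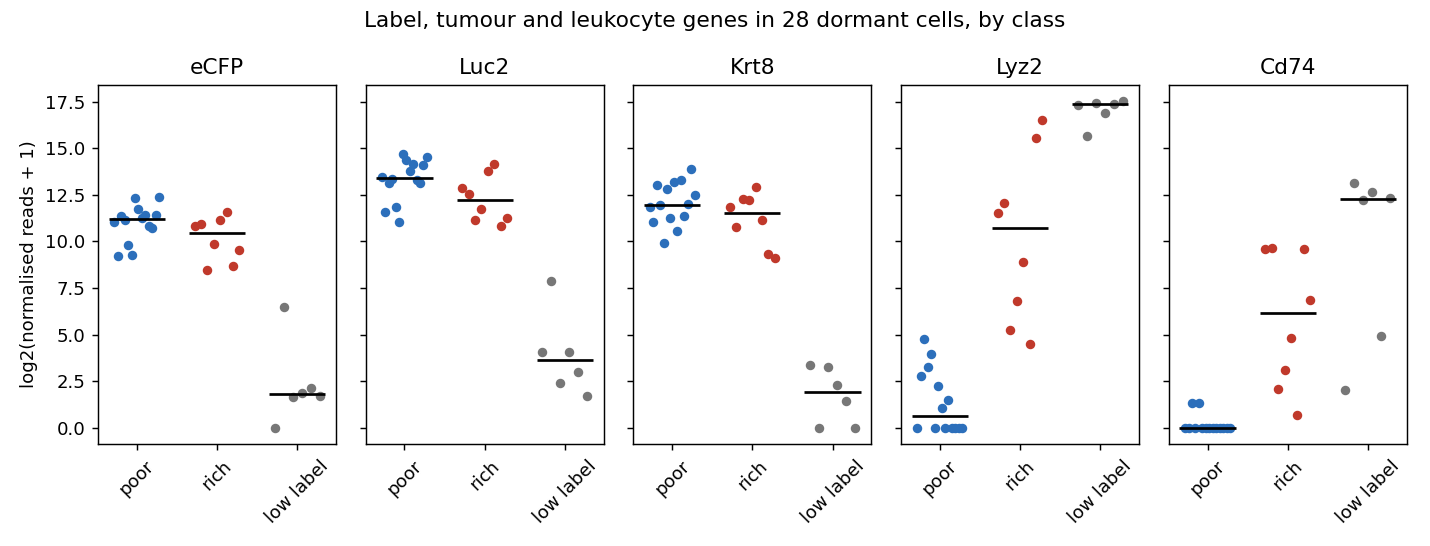
Levels of eCFP, Luc2, Krt8, Lyz2 and Cd74 (log2 of normalised reads plus 1) in the 14 leukocyte-poor, 8 leukocyte-rich and 6 low-label dormant libraries; each point is a library and each bar the class median. Leukocyte-rich libraries overlap the leukocyte-poor ones in the first 3 genes and lie above most of them in Lyz2 and Cd74.

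The other leukocyte lists varied by lineage and by mouse. Of 10245 genes above 0 in at least 6 of the 22 cells, 0% had an adjusted p under 0.05 by limma in the contrast of the classes, and by an unadjusted p under 0.05 it was 2.86% (1.24% higher, 1.62% lower). DESeq2 on recovered reads called 1.01% of the 9053 genes to which it gave an adjusted p. The rule itself drew on this contrast, so the counts below are descriptions with no test. Over those genes 35.6% were higher and 64.4% lower in leukocyte-rich cells, and the median difference was −0.43 on the log2 scale. Of them 0.166% were at 0 in every leukocyte-poor cell, and for 0% did every leukocyte-rich cell lie above, or below, every leukocyte-poor cell. A gene at 0 in all 14 leukocyte-poor cells is among them only if at least 6 of the 8 leukocyte-rich cells hold it. Of the 7 rule genes at 0 in every leukocyte-poor cell, 2 are among them. The same share over genes without this filter was not computed. Only 11 of the 18 rule genes reached that filter, all 11 higher in the mean, with a median of 3.58. Genes reach the filter partly through the leukocyte-rich cells themselves, so this count follows from the choice of cells.
Of 29 further pan-leukocyte genes, 14 were measured in enough cells, and 13 were higher and 1 lower (median 3.58). By mouse the median was 5.13 in mouse 369, 4.79 in mouse 1184, 1.29 in mouse 1185 and 0 in mouse 452. Tyrobp, the DAP12 signalling adaptor, was above 0 in 8 of 8 leukocyte-rich cells (0.628 to 5800, median 326) and in 3 of 14 leukocyte-poor cells (highest 3.07). Its lowest value, 0.628, was 1 read in cell 94. Fcer1g, its companion adaptor for Fc receptors, was above 0 in 8 of 8 (1.88 to 4789) and 4 of 14 (highest 134).

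Of 25 macrophage and monocyte markers in the table, a median of 14.5 were above 0 in leukocyte-rich and 4 in leukocyte-poor cells. Their summed level ran from 54.0 to 134660 normalised reads in leukocyte-rich cells (median 5602) and from 344 to 3278 in leukocyte-poor cells (median 1651). Of 13 genes tested, 11 were higher and 2 lower, with a median of 3.91 (9.25 in mouse 1184, 5.69 in mouse 369, 0.87 in mouse 1185 and 0 in mouse 452).
The complement subunits C1qb and C1qc, made by tissue macrophages, were each above 0 in 7 of 8 leukocyte-rich cells. In leukocyte-poor cells they were above 0 in 2 and 1 of 14. Their partner subunit C1qa was above 0 in only 3 of 8 leukocyte-rich and 1 of 14 leukocyte-poor cells. The macrophage marker Mpeg1 was above 0 in 4 of 8 and 0 of 14. C1qc reached 2828 in cell 105, 556 in cell 104, 371 in cell 26 and 37.4 in cell 29, and was at most 2.68 in the other 4. C1qb reached 6419 in cell 105 and 3999 in cell 104. The F4/80 receptor Adgre1 was above 0 in 6 of 8 leukocyte-rich cells, up to 1243, and at 0 in all 14 leukocyte-poor cells. Csf1r, the receptor for the macrophage growth factor M-CSF, was above 0 in 5 of 8, up to 2287, and in 2 of 14 leukocyte-poor cells. Cathepsin S (Ctss), a protease of antigen-presenting cells, was above 0 in 7 of 8 and read 1563 in cell 26, 616 in cell 29, 2998 in cell 104 and 12959 in cell 105, against at most 2.96 in leukocyte-poor cells. Cd14, a co-receptor for bacterial lipopolysaccharide, overlapped between the classes: it was above 0 in 6 of 8 leukocyte-rich and 8 of 14 leukocyte-poor cells.

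Granulocyte genes were concentrated in 1 cell. S100a8, a subunit of calprotectin, read 4450 in cell 29, 199 in cell 105, 38.5 in cell 26, 34.8 in cell 93 and 4.76 in cell 51, and its partner S100a9 read 3619 in cell 29. Mmp8, neutrophil collagenase, read 468 in cell 29 and 6.07 in cell 26. The summed level of 19 granulocyte genes had a median of 115 normalised reads in leukocyte-rich cells and a highest value of 9518, against at most 35.3 in leukocyte-poor cells.
Markers of most other lineages were at 0 or overlapped between the classes. Those of T and NK cells and of megakaryocytes were higher in some leukocyte-rich cells. The 7 measured erythroid genes summed to at most 5.36 normalised reads in leukocyte-rich cells and 88.8 in leukocyte-poor cells, and the B cell receptor chain Cd79a was at 0 in all 22 cells. The platelet chemokine Pf4 was above 0 in cells 26 (40.5), 104 (17.9) and 105 (86.8) and at 0 elsewhere. The 3 megakaryocyte and platelet genes of the table summed to at most 86.8 normalised reads in leukocyte-rich cells (median 2.68). They were at 0 in every leukocyte-poor cell. The 5 T and NK cell genes of the table summed to at most 826 (median 2.13) against at most 1.53 (median 0). Among these, Il7r, the interleukin-7 receptor, and Cd4 were highest in cell 105, at 638 and 188. The mast cell, basophil and eosinophil list held 1 measured gene, which was at 0 in all 22 cells. The 12 B cell and plasma cell genes summed to at most 627 normalised reads in leukocyte-rich and 661 in leukocyte-poor cells, and the 6 dendritic cell genes to at most 1119 and 1218. Of each of these lists 2 genes were tested, and both were lower in the mean (medians −0.92 and −1.23). The 4 osteoclast genes summed to at most 583 and 418. The osteoblast and stroma list, nearly all of it osteopontin (Spp1), a matrix protein that many tumour cells also secrete, was high in both classes: Spp1 ran from 1573 to 134009 (median 38879) against 142 to 116225 (median 64515).

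MHC class II genes, which present peptides to CD4 T cells, followed the same cells. Cd74, the invariant chain, read 0.628 in cell 94, 3.17 in cell 51, 7.61 in cell 81, 26.8 in cell 93, 115 in cell 105, 761 in cell 26, 772 in cell 104 and 793 in cell 29. It was above 0 in 2 of 14 leukocyte-poor cells, at most 1.53, so 1 leukocyte-rich cell overlapped them. H2-Ab1, a class II β chain, was above 0 in 5 of 8 cells and highest in cell 29, at 545. Cell 105, with the most Lyz2, was thus not the cell with the most class II transcripts.
Of 11 chemokine and cytokine genes tested, 6 were higher and 5 lower, with a median of 3.56. Ccl4, a chemokine for myeloid and T cells, was above 0 in 8 of 8 leukocyte-rich cells and reached 2479 in cell 104 and 2912 in cell 105, against at most 3.07 in leukocyte-poor cells. Tnf read 2968 in cell 105, 728 in cell 104, 155 in cell 29 and 54.7 in cell 26, and at most 8.03 in the other leukocyte-rich cells. Cxcl10, an interferon-induced chemokine, was highest in cell 105, at 983.
Lysosome and phagocytosis genes were higher in 18 of 21 tested, with a smaller median of 0.90. Cathepsin D (Ctsd), a lysosomal protease, read 36415 in cell 104 and 41638 in cell 105 but 966 to 10135 in the other leukocyte-rich cells, over a leukocyte-poor range of 66.2 to 9264. Ctsb and Ctsz were likewise highest in cell 105, at 94620 and 7623. Against leukocyte-poor maxima of 25021 and 2075, 1 leukocyte-rich cell lay higher for Ctsb and 3 for Ctsz. The scavenger receptor Msr1 was at 0 in every leukocyte-poor cell and reached 269 in cell 105.

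**Figure D3:**
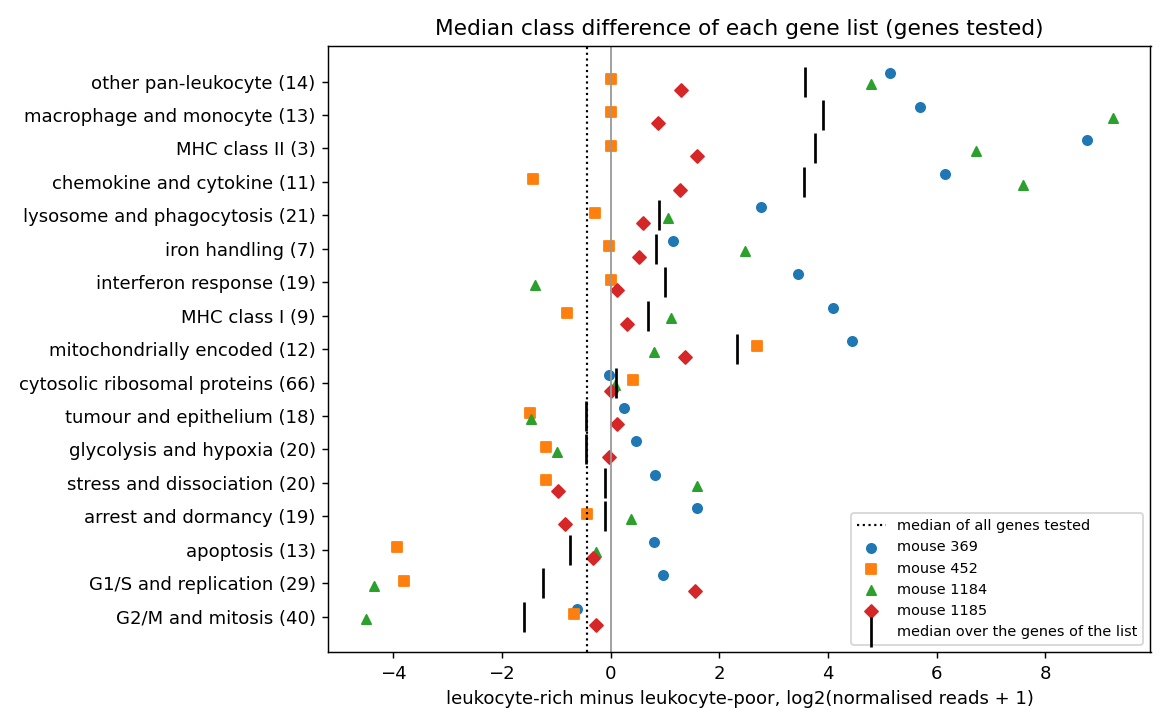
Median class difference of each gene list, leukocyte-rich minus leukocyte-poor, in each of 4 mice (points) and over the genes of the list (vertical strokes), on the log2(normalised reads + 1) scale, with the median of all genes tested dotted; the number of genes tested is in brackets. Leukocyte lists lie far right in mice 369 and 1184 and at or left of 0 in mouse 452, while the mitochondrially encoded list lies right of 0 in all 4 mice.

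Transcripts of the mitochondrial genome, which encodes respiratory chain subunits and the ribosomal and transfer RNAs to translate them, took a larger share of reads in the leukocyte-rich class in every mouse. All 21 mitochondrial genes of the table, noncoding ones included, made up 3.14% to 11.8% of the reads of leukocyte-rich cells (median 4.86%) and 0.172% to 7.59% of those of leukocyte-poor cells (median 2.57%). The mean difference over mice was 3.86 ± 3.51 percentage points (SD, n = 4), and it was 2.95 in mouse 369, 9.05 in mouse 452, 1.98 in mouse 1184 and 1.45 in mouse 1185. The classes overlapped, but 8 of 14 leukocyte-poor cells lay below the lowest leukocyte-rich cell. The value of mouse 452 rests on cell 51 alone, which had 11.8% and the fewest genes above 0 of the 22 cells (2984). The 13 protein-coding genes alone made up 2.73% to 9.24% of reads (median 4.24%) against 0.0465% to 6.30% (median 2.13%), a difference of 3.52 ± 2.58 percentage points (SD, n = 4), higher in 4 of 4 mice.
All 12 protein-coding mitochondrial genes tested were higher in the mean, with a median of 2.33, and 11 of them were higher in each of 4 mice. For mt-Co2, cytochrome c oxidase subunit 2, leukocyte-rich cells lay between 7844 and 17371 normalised reads and leukocyte-poor cells between 210 and 20892 (median 5951), a difference of 2.26 ± 0.47 log2 units (SE, n = 4). The leukocyte-poor class was thus the more spread of the 2 for this gene. Gm10925 and Gm29216, both among the 10 higher genes with the smallest p in the contrast of the classes, are unprocessed pseudogenes on chromosome 1: 100% and 97.2% of their 31-base stretches also occur in mt-Atp6 and mt-Co1, so their reads cannot be told apart from mitochondrial ones. Low-label dormant libraries, which held the most leukocyte transcripts, had 1.02% to 2.54% mitochondrial reads, under every leukocyte-rich labelled dormant cell. Leukocyte-rich proliferating cells 46 (2.21%) and 66 (2.51%) lay within that range. The spike-in share of the low-label libraries was 0.633% to 50.7% of reads.

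**Figure D4:**
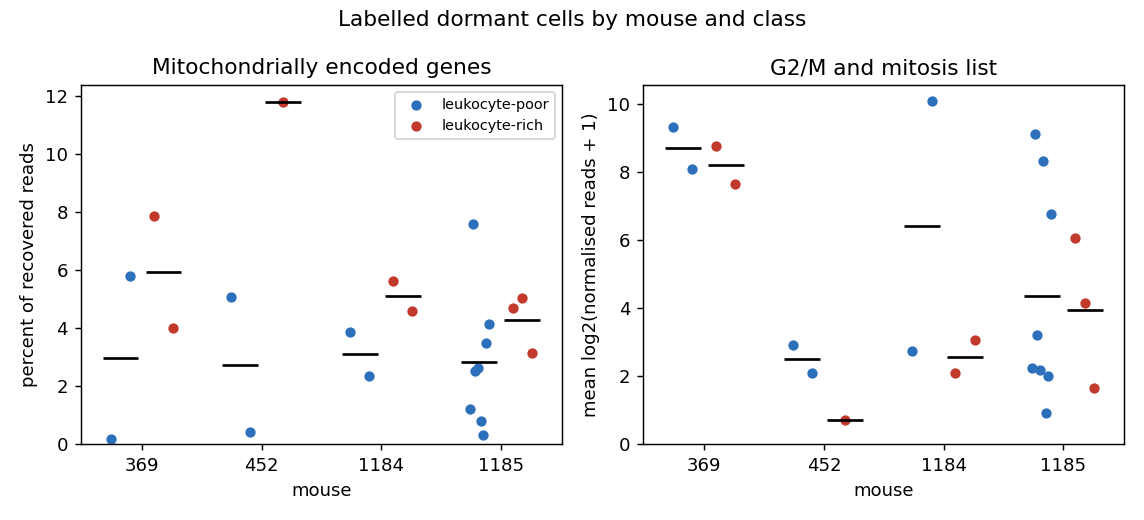
Percent of recovered reads in 21 mitochondrially encoded genes (left) and mean log2 level of 40 G2/M and mitosis genes (right) in each of the 22 labelled dormant cells, by mouse; bars are class means. The mitochondrial share is higher in the leukocyte-rich class of each mouse, and cells of both classes in mouse 369 have high G2/M levels.

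Cell cycle genes spanned nearly the same range in both classes. The mean log2 level of 40 G2/M genes ran from 0.712 (cell 51) to 8.76 (cell 26) in leukocyte-rich cells and from 0.920 (cell 98) to 10.1 (cell 106) in leukocyte-poor cells. It was high in all 4 labelled dormant cells of mouse 369, at 7.64 to 9.32. Of the 40 genes, 39 were lower in leukocyte-rich cells in the mean, with a median of −1.60, but the median was −4.50 in mouse 1184 and −0.27 to −0.67 in the other 3 mice. In mouse 1184 the leukocyte-poor mean rests on cell 106 (10.1) and cell 102 (2.73).
Mki67, the Ki-67 proliferation antigen, was above 0 in 4 of 8 leukocyte-rich cells (131 to 759) and 8 of 14 leukocyte-poor cells (at most 909). The CDK inhibitor Cdkn1b was at most 19.7 in the former and 50.3 in the latter. The G1/S list had a median of −1.24, positive in mice 369 and 1185 and negative in mice 452 and 1184.
Interferon response genes split by mouse. Of 19 tested, 13 were higher and 6 lower (median 1.00), with medians of 3.45 in mouse 369, 0 in mouse 452, −1.40 in mouse 1184 and 0.12 in mouse 1185. Without mouse 369 the median over the list was −0.46. Irf7, the master regulator of type I interferon genes, read 52.6 in cell 26, 45.2 in cell 29 and 67.2 in cell 105, at most 5.07 in the other leukocyte-rich cells, and was above 0 in 1 of 14 leukocyte-poor cells (57.9).

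The tumour and epithelial list differed in sign between mice. Of 18 tumour and epithelial genes tested, 13 were lower and 5 higher, with a median of −0.45 beside −0.43 for all genes. The median was −1.47 in mouse 1184 and −1.48 in mouse 452, and 0.13 in mouse 1185 and 0.24 in mouse 369. The median of all genes was 0.04 without mouse 452, whose leukocyte-rich class is cell 51, and −1.07 without mouse 369, so the shift of the average gene depends on single mice. Cytosolic ribosomal protein genes had a median of 0.11 (46 of 66 higher). Among the other lists, iron handling had a median of 0.83 (6 of 7 higher) and MHC class I of 0.68 (6 of 9). Stress and dissociation genes (9 of 20 higher) and arrest and dormancy genes (9 of 19 higher) both had a median of −0.10. Apoptosis genes had a median of −0.75 (11 of 13 lower) and glycolysis genes of −0.44 (16 of 20 lower).
Among genes lower in each of 4 mice, Actg1, cytoplasmic γ-actin, had the smallest p. It read 3874 to 14204 in leukocyte-rich cells and 3719 to 34974 in leukocyte-poor cells (median 12648), a difference of −0.77 ± 0.12 (SE, n = 4). Tpm4, a tropomyosin of the actin cytoskeleton, read 1270 to 2592 against 2134 to 7304, with a difference of −0.98. For both genes the ranges overlapped. The chaperone Hspa8 and the ubiquitin ligase Nedd4 were also among the 10 genes chosen, with differences of −1.16 and −2.18, and 6.09% of all genes tested were lower, and 2.95% higher, in each of 4 mice. Malat1, a nuclear long noncoding RNA, read 1949 to 42621 against 416 to 25154.

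The share of leukocyte-rich cells in dormant and proliferating cells is a comparison the rule did not use. Of the 22 labelled dormant cells 36.4% were leukocyte-rich (95% exact binomial interval 17.2% to 59.3%), and of 29 labelled proliferating cells 24.1% (10.3% to 43.5%). By mouse the mean was 40.2% ± 11.6 in dormant cells (SD, n = 4) and 21.9% ± 19.4 in proliferating cells (SD, n = 6). The difference of 18.2 percentage points did not exceed the spread between mice (two-sided exact permutation test, p = 0.125). In the 3 mice with labelled cells of both states the dormant share was higher in 2. The mean difference over these 3 mice was 9.73 points (exact permutation test, 8 arrangements, p = 0.5).
These intervals cover counting error only, and most mice gave fewer than 5 cells of a state. Among cells with 40 or more spike-in features, 2 of 4 labelled dormant and 2 of 9 proliferating cells were leukocyte-rich, and among the rest 6 of 18 and 5 of 20. In the latter set the difference of mouse means was 11.2 points (exact permutation p = 0.5); the former held dormant cells of 1 mouse. Raising the eCFP minimum to 1000 left a difference of −5.42 points (exact permutation p = 0.875).

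**Figure D5:**
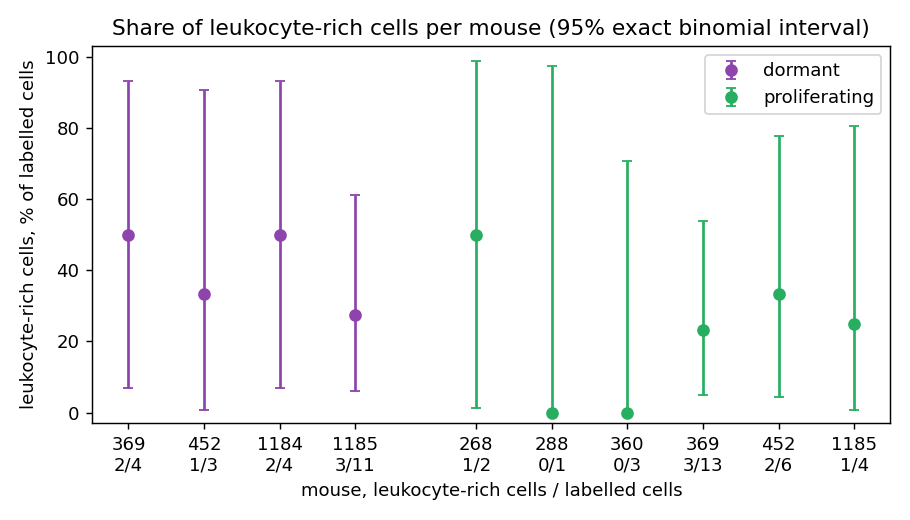
Leukocyte-rich cells as a percent of labelled cells in each mouse (points, with 95% exact binomial intervals), for dormant and proliferating cells; the numbers of cells are under each mouse. Dormant shares lie between 27.3% and 50.0% and proliferating shares between 0% and 50.0%, with wide intervals in every mouse.

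Leukocyte-rich cells of the 2 states were then compared directly, in the sense dormant minus proliferating, which the rule did not fix either. The groups passed the threshold by unlike margins. Proliferating members held 5 to 13 rule genes (median 5) and dormant members 5 to 18 (median 11.5). Without Arhgdib the rule genes summed to a median of 204 normalised reads in the former and 676 in the latter. Lyz2 in the 7 leukocyte-rich proliferating cells had a lowest value of 0, a median of 15.9 and a highest value of 1251 (cell 89 of mouse 1185), against 21.99 to 95205 in dormant cells. Within the set with 40 or more spike-in features, Lyz2 read 2940 and 4262 in dormant and 12.7 and 15.9 in proliferating leukocyte-rich cells; in the other set it read 21.99 to 95205 and 0 to 1251. C1qc was above 0 in 1 of 7 proliferating cells, at 1.06, and in 7 of 8 dormant ones. The summed macrophage list reached 3568 in proliferating cells and 134660 in dormant ones, but the ranges overlapped.
Leukocyte-rich cells came from 4 mice in each state, and mice 369, 452 and 1185 gave such cells in both. The fit treated the states as unpaired. In it Lyz2 differed by 4.59 ± 2.31 log2 units (SE), C1qc by 4.77 ± 1.88 and Ccl4 by 5.23 ± 2.03. None passed the test (limma adjusted p = 0.958 for each), and 0% of 11595 genes did; 0.552% had an unadjusted p under 0.05 with higher and 1.72% with lower levels, 2.27% in all. The smallest p among higher genes was that of Slc16a10, an aromatic amino acid transporter (4.73 ± 1.69), and among lower genes that of Tm4sf1, a tetraspanin-like surface protein (−1.58 ± 0.38). Both also had an adjusted p of 0.958. Cell 89 held the globin transcripts Hba-a1 at 13593 and Hbb-bs at 29184, each at most 2.68 in leukocyte-rich dormant cells, and S100a8 at 11263.
The test of whether the class difference itself differed between states called 0% of 11595 genes as well; by an unadjusted p under 0.05 it was 7.79% (0.561% higher, 7.23% lower). In proliferating cells 81.1% of genes were higher in the leukocyte-rich class, against 35.6% in dormant cells. Whether these shares depend on gene detection in single libraries was not tested. The leukocyte-rich class of proliferating cells had more genes above 0 in 2 of 4 mice. In mouse 268 the proliferating classes were cell 9 (leukocyte-rich, 8480 genes above 0) and cell 6 (leukocyte-poor, 2399). Leaving out mouse 268 moved the median interaction from −1.62 to −0.83. The genes lower by an unadjusted p under 0.05 then went from 838 to 321. Over all genes tested in the class contrast, the median class difference was 1.44 in proliferating and −0.43 in dormant cells. The single-gene values below stand beside these unlike medians. For mt-Co2 the class difference was 2.27 log2 units in proliferating cells, higher in 4 of 4 mice with both classes, and 2.26 in dormant cells (interaction −0.01, limma adjusted p = 0.997). For Lyz2 it was 3.53 in proliferating and 8.33 in dormant cells (interaction 4.80, adjusted p = 0.560). For Ufl1, a ligase for the ubiquitin-like modifier UFM1, it was 4.99 in proliferating and −4.66 in dormant cells (interaction −9.65, adjusted p = 0.558).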

How the data were processed

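Values are the reads per gene that the authors normalised with BASiCS and deposited as one table of all cells (a signal, not counts), per the labels and the series' design text. STAR, RSEM and GRCm38 are named in the submitters' processing notes. In each cell the gene values were whole multiples of 1 read (100% within 0.01), so reads were recovered, and libraries held 945351 to 5306777 gene reads (members 1310736 or more). The members and gene lists were chosen with earlier results of these data known.

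Values were averaged as log2(value + 1) per mouse and class, for genes above 0 in at least 6 cells, and fitted with limma 3.58.1 (R 4.3.3; trend, robust) with mouse as a block for the class contrast and the interaction, and without it between states. P-values were Benjamini-Hochberg adjusted over all genes at 0.05. Mice are the replicates. The pairing comes from the same animal giving both classes, and deviations within a mouse correlated at 0.04 to 0.26. On the recovered reads, summed per mouse and class, edgeR 4.0.16 called 0 genes and DESeq2 1.42.0 called 91. The class fit was also run on simulated data. There each gene was shuffled over the labelled dormant cells, and some genes seen in most cells were raised. Shuffling removes differences between mice and detection shared within a cell, so that run does not cover them or genes seen in few cells. Named genes were the rule genes, 12 fixed genes, the 10 top genes by p in each direction that moved the same way in every mouse, up to 4 per list, the highest markers per marrow list, and 3 per direction between states; genes outside the rule are those that illustrate a list. Which library batch a cell was in entered no fit. The mitochondrial percentages and the split by spike-in features were added after seeing the data.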

Additional observations from a re-analysis of the deposited data

Results flagged for a closer look

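In 85 groups of 4 to 10 values, 8 held an extreme value by Dixon's ratio, and chance gives about 1 in 20. Among 4 mice, 1 mouse stood lowest for Krt8 (difference −3.95, mouse 1184) and for the G2/M list (median −4.50, mouse 1184), and 1 stood highest for Mki67 (3.35, mouse 369). Among 4 mice, the lowest difference stood apart for Dusp7 (−6.30) and Taf2 (−5.78), both in mouse 452. Among the 8 leukocyte-rich cells, the highest log2 value stood apart for Dusp7 (5.76, cell 29) and Shc2 (1.88, cell 93, from 1 read), and the lowest for mt-Nd2 (9.44, cell 94).

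Ufl1 was lower in leukocyte-rich cells in 4 of 4 mice of dormant cells (−4.66) and higher in 4 of 4 mice of proliferating cells (4.99). The interaction did not pass limma's adjusted test (adjusted p = 0.558).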

How the results depend on the processing

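In the class contrast 0 genes passed in 20 of 22 alternatives. DESeq2 called 91 genes (42 higher, 49 lower), and counting cells as leukocyte-rich from 3 rule genes, which left 2 mice with both classes, called 21 (20 higher, 1 lower). Both other gene-wise tests called 0 genes in all 14 alternatives each, with and without the replicate block. Without the replicate block the class contrast also called 0 genes. The state difference in the share was −5.42 points with eCFP of at least 1000, and 42.6 with no eCFP threshold (p = 0.0417, exact permutation), which adds the 6 low-label libraries; leaving out each mouse gave 13.9 to 23.9. The median of the iron handling list was 0.83, 2.45 with 7 rule genes as the minimum, and 0.102 to 2.45 with each mouse left out (2.45 without mouse 452); the setting at 2.45 removes cell 51 from the leukocyte-rich class. The interferon median turned to −0.46 without mouse 369 and to −1.38 for genes above 0 in at least 11 cells. With 4 mice and 1 to 3 leukocyte-rich cells in each, single-gene differences of several log2 units did not pass limma's adjusted test in the main fit. Some of them, such as that of Lyz2, went the same way in every mouse. Values near 1 read are at the limit of detection.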
